A study of Mus musculus with 3 samples.

Results

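The genes described here are 39 members of the NRF2 and glutathione antioxidant system, of 31069 gene symbols with a probe on the array. They were chosen by name, as regulators, targets and enzymes of that system, and every one of the 39 had at least 1 probe. The cells were bone marrow-derived mast cells (BMMCs), which are grown from mouse marrow in culture, and all came from male mice on a C57BL/6 background that lack Pafah2. Pafah2 encodes an intracellular phospholipase that hydrolyses platelet-activating factor and oxidized phospholipids, and its loss was shared by every group, the control included. The mice were 12 weeks old by the sample label, and nothing in the labels says how many mice or cultures stand behind an array. There were 3 groups with 1 array each: DMSO vehicle, 17,18-EpETE and 19,20-EpDPE (epoxides of omega-3 fatty acids) mixed 2 to 3 at 300 nM, and the PPAR gamma antagonist GW9662 at 0.5 µM. Treatment lasted 12 h. Total RNA was labelled with a single dye and read on Agilent arrays. With 1 array per group there was no replicate, so no difference below has a test, and the spread between cultures is unknown. Fewer cells of a type and less RNA per cell cannot be told apart in such bulk samples.

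NRF2, encoded by Nfe2l2, is a transcription factor that the adaptor KEAP1 normally delivers for degradation. Oxidants and electrophiles modify KEAP1, NRF2 then accumulates, pairs with small MAF proteins and binds antioxidant response elements. Its targets make and recycle glutathione and thioredoxin, supply NADPH, reduce quinones, conjugate electrophiles to glutathione, break down haem and store iron. Much of the control of NRF2 acts on the protein, which these arrays did not measure.

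Levels are log2 signals relative to the array's own 75th percentile, so a level of 0 is that percentile. Each gene is represented by its brightest probe, and a level can be compared between arrays but not between genes. Where 3 levels follow each other below, they are vehicle, epoxides and GW9662 in that order. Well above background were between 52.3% and 54.6% of an array's non-control spots. Copies of probes spotted several times on each array gave a technical SD of a log2 difference of 0.0803 for epoxides minus vehicle, 0.0798 for GW9662 minus vehicle and 0.0764 for epoxides minus GW9662. This SD covers spot error only, not labelling, culture or mouse.

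Properties of the arrays touch these values. Array rows 181 to 400 of 532 formed a band in which repeated copies of a probe disagreed by at least 2-fold more often than elsewhere, and 15 of the 36 genes that could be measured on all arrays were read there. They were Sqstm1, Gclm, Gsr, Txn1, Srxn1, Prdx2, Pgd, Tkt, Nqo1, Osgin1, Ftl1, Fth1, Gsta3, Gstp1 and Gpx4. The treated arrays are named after the sample to which their scanner file is attached. In the authors' deposited value table the columns labelled epoxides and GW9662 each matched the scanner file of the other treatment, while the vehicle column matched its own, and the labels do not settle which assignment is right. Every difference below therefore also exists with the 2 treatments exchanged. Of 10 mast cell markers, 10 were well above background on all arrays, with summed signals of 656, 508 and 587 times the 75th percentile. The same held for 3 of 3 basophil markers (summed signals 12.9, 12.7 and 12.8), 4 of 10 neutrophil markers (6.07, 5.67 and 6.60) and 5 of 8 macrophage markers (1.78, 1.74 and 1.76). It also held for 3 of 7 erythroid markers (1.45, 1.28 and 1.39), 3 of 4 megakaryocyte markers (4.64, 4.27 and 4.06) and 2 of 4 T cell markers (2.39, 1.45 and 2.08). These sums cover every marker of a list with a probe, also those not well above background. Among the neutrophil markers Mpo was well above background on the treated arrays only, with levels of -5.48, -5.42 and -2.43. No B cell marker of 4 was well above background on all arrays, and Cd79a was so on the GW9662 array only. None of 4 eosinophil and 4 stromal markers was well above background on any array. The part of other cell types in the values below was not tested.

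The core of the antioxidant response element was looked for in the promoters of the genes. The letters searched were TGACNNNGC on both strands, in RefSeq windows of 300 bases that run from 250 bases before a transcription start to 50 after it (build GRCm38.p6). It is the only motif searched. Of the 39 genes 34 had a window, and 13 of these held the core (38.2%), against 14.0% of 27025 genes with a window and 12.4% of all 32851 windows. The sequences shown belong to 6 genes on which the results below turn and whose core lies before the start. Each is 60 bases, 5′ to 3′ on the gene's own strand, and capitals mark the core. A core on the opposite strand appears as its reverse complement, which begins with GC.
Nfe2l2: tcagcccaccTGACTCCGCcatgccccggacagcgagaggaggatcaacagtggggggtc
Gclm: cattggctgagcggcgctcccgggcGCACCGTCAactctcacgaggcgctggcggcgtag
Txnrd1: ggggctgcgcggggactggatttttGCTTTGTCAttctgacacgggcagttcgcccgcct
G6pdx: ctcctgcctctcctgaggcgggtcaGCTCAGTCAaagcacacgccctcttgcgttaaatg
Gsta3: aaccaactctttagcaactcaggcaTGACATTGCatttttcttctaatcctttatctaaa
Sod1: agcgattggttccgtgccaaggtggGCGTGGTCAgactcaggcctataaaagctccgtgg

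In build GRCm38.p6 these stretches lie at chr2:75704854-75704913 on the minus strand (Nfe2l2), chr3:122245398-122245457 on the plus strand (Gclm), chr10:82859089-82859148 on the plus strand (Txnrd1), chrX:74428903-74428962 on the minus strand (G6pdx), chr1:21240439-21240498 on the plus strand (Gsta3) and chr16:90220681-90220740 on the plus strand (Sod1). The first base of the core was 240 bases before the start in Nfe2l2, 134 in Gclm, 92 in Txnrd1, 57 in G6pdx, 121 in Gsta3 and 56 in Sod1. The other genes with a core were Blvra, Srxn1, Prdx1, Pgd, Mgst1, Me1 and Abcc4. A match is a description of letters and not a shown binding site.

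Of the 39 genes, 36 were well above background on all 3 arrays. The glutathione transferase Gsta4, read by 10 copies of its probe, and the membrane-bound glutathione transferase Mgst1 were not well above background on any array. Slc7a11, the subunit of the cystine transporter that supplies cysteine for glutathione, was well above background on the vehicle array only. The 36 genes include all the regulators, all the enzymes of glutathione synthesis and recycling, and all the thioredoxin and peroxiredoxin genes of the list.

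**Figure D1:**
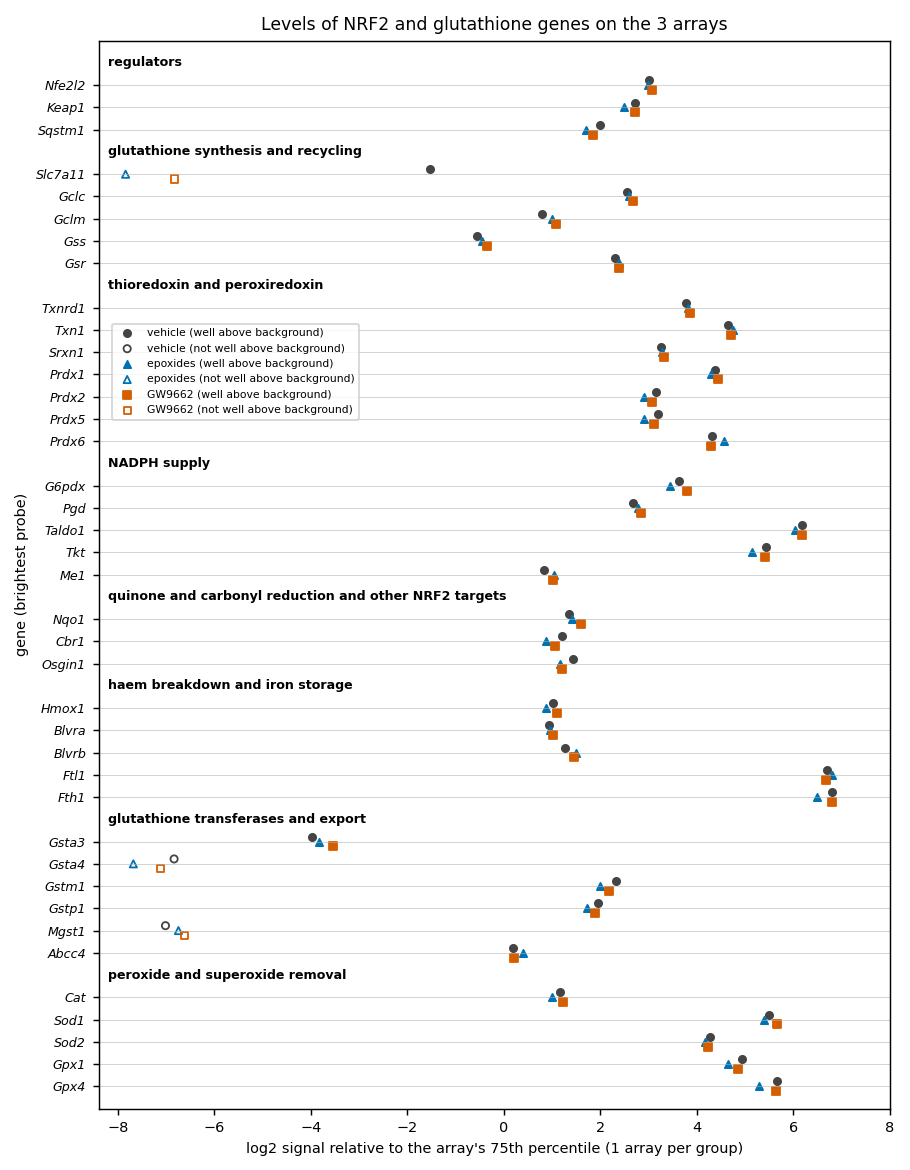
Level of each of the 39 genes on the 3 arrays, as log2 signal relative to the array's 75th percentile (horizontal axis), with genes grouped by role and 1 symbol per array; open symbols mark spots not well above background. For most genes the 3 symbols lie close together, while Slc7a11 stands at -1.53 on the vehicle array and at -7.84 and -6.83 on the treated arrays.

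Of the regulators, Nfe2l2 was within the technical SD of vehicle on both treated arrays, while Keap1 and Sqstm1 were lower on the epoxide array. Nfe2l2 had levels of 3.00, 2.99 and 3.06 (probe at chr2:75513771-75513830, build mm9), and its differences from vehicle, -0.010 for epoxides and 0.060 for GW9662, were smaller than the technical SD. With the trend in probe base composition and signal removed it stood beyond that SD, at -0.11 for epoxides and at -0.15 for epoxides minus GW9662. Keap1, which encodes the inhibitor of NRF2, had levels of 2.72, 2.49 and 2.71. It was lower by a log2 difference of -0.23 on the epoxide array and stood at -0.0037 on the GW9662 array. Sqstm1 encodes p62, an autophagy receptor that binds KEAP1, and it is itself an NRF2 target. Its levels of 1.99, 1.71 and 1.84 put both treated arrays below vehicle, by -0.27 for epoxides and -0.15 for GW9662, from a spot in the band of rows. With the same trend removed, Sqstm1 was at -0.18 and Keap1 at 0.032 for epoxides, so the position of Keap1 below vehicle depends on that trend.

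The genes of glutathione synthesis and recycling formed the only role whose measured members all stood above vehicle on both treated arrays. There were 4 of them, with a median difference of 0.084 for epoxides and 0.15 for GW9662, both read against the same vehicle array. Of all measured genes 38.9% were above vehicle with epoxides and 42.2% with GW9662. Gclc, the catalytic subunit of the ligase that joins glutamate and cysteine, had levels of 2.56, 2.60 and 2.67 (probe at chr9:77641296-77641355, mm9). Its differences were 0.042 for epoxides, within the technical SD, and 0.11 for GW9662. Gclm, the modifier subunit of the same ligase, had levels of 0.78, 0.99 and 1.08, read in the band of rows. Its differences were 0.21 and 0.30, the latter a 1.23-fold higher signal on the GW9662 array. Gss, which adds glycine to complete glutathione, had levels of -0.55, -0.45 and -0.35, with vehicle the lowest. Gsr, the reductase that regenerates glutathione from its oxidized form, had levels of 2.31, 2.38 and 2.39, again with vehicle lowest. For epoxides it was within the technical SD of vehicle. A second, dimmer Gsr probe outside the band had differences of 0.23 for epoxides and 0.19 for GW9662. All measured members of the group stayed above vehicle under every alternative way of processing that kept only spots above background, and so also with the treatments exchanged. The sizes did not stay the same. With the trend in base composition and signal removed, Gclm was at 0.060 and Gclc at 0.0084 for epoxides, both within the technical SD. Gss was then at 0.22 and Gsr at 0.11. Leaving out the band of rows left 3 members, with medians of 0.096 for epoxides and 0.19 for GW9662.

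Slc7a11 is the exception in that group and rests on a single spot in the band of rows (probe at chr3:50169700-50169759, mm9). Its levels were -1.53, -7.84 and -6.83, so the vehicle signal was at least 16.4-fold above the epoxide array and at least 11.3-fold above the GW9662 array. These bounds are taken against the lowest level well above background on the treated array, here -5.57 for epoxides and -5.03 for GW9662, and not against the dim reading. On the vehicle array the pixels of that spot had a coefficient of variation of 37.6%, against a median of 11.8% for spots above background in the band. Of its 8 neighbouring non-control spots 4 were likewise well above background on the vehicle array only. Among all non-control spots, those above background on the vehicle array only and with a bound of at least 2-fold made up 219 of 18028 in the band (1.21%) and 7 of 24992 outside it (0.028%). The scanner software set no outlier flag on the Slc7a11 spot. Its part in a local defect of the array was not tested, and it enters no count or median except where the filter on dim probes was dropped.

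In the thioredoxin system Txnrd1 and Srxn1 differed little from vehicle, and the peroxiredoxins differed more widely on the epoxide array. Txnrd1, the cytosolic thioredoxin reductase, had levels of 3.78, 3.82 and 3.85, and its differences of 0.033 for epoxides and 0.067 for GW9662 were within the technical SD. Srxn1, which repairs overoxidized peroxiredoxins, had levels of 3.25, 3.28 and 3.32 with differences of 0.030 and 0.073, also within it. Txn1, thioredoxin itself, had levels of 4.65, 4.75 and 4.70. Its difference was 0.10 for epoxides, beyond the technical SD, and 0.056 for GW9662, within it. The epoxide value was 0.22 under quantile normalization and under cyclic loess. All 3 genes thus had vehicle as their lowest array, although Srxn1 stood at -0.058 for epoxides with the trend in base composition and signal removed.

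Peroxiredoxins reduce peroxides with thiols from thioredoxin or, for Prdx6, glutathione. Prdx1 had levels of 4.38, 4.29 and 4.44, and Prdx2 had levels of 3.15, 2.91 and 3.07, with the epoxide array lowest in both. Prdx5, the form found in mitochondria and peroxisomes among other places, had levels of 3.20, 2.90 and 3.11 and a difference of -0.31 for epoxides against -0.096 for GW9662. Prdx5 was at -0.042 for epoxides and Prdx2 at -0.045 once the trend in base composition and signal was removed, both within the technical SD. Prdx6 went the other way, with levels of 4.32, 4.57 and 4.30 (probe at chr1:163171138-163171197, mm9). It was above vehicle on the epoxide array by a log2 difference of 0.25 (1.19-fold) and above the GW9662 array by 0.27. Its other detected probes gave -0.15 and -0.23 for epoxides minus vehicle, so the direction for Prdx6 holds for its brightest probe only.

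NADPH, the reductant that glutathione and thioredoxin reductases consume, comes largely from the pentose phosphate pathway and malic enzyme. G6pdx, glucose-6-phosphate dehydrogenase and the entry step of that pathway, had levels of 3.62, 3.45 and 3.79 (probe at chrX:71654949-71655008, mm9). The treated arrays lay on opposite sides of vehicle, at -0.17 for epoxides and 0.17 for GW9662, and were -0.34 apart. With the trend in base composition and signal removed the epoxide value became 0.060. Pgd, the next oxidative enzyme, had levels of 2.68, 2.77 and 2.85, and Me1, cytosolic malic enzyme, had levels of 0.84, 1.05 and 1.01. In both genes vehicle was the lowest array. The non-oxidative enzymes had the epoxide array lowest. Taldo1, a transaldolase, had levels of 6.18, 6.04 and 6.18. Tkt, a transketolase, had levels of 5.44, 5.15 and 5.40 and a difference of -0.29 for epoxides, which became 0.049 with the trend in base composition and signal removed. Tkt was read in the band of rows.

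Quinone and carbonyl reduction showed no common direction. Nqo1, the quinone reductase most often used as a readout of NRF2, had levels of 1.34, 1.42 and 1.59 (probe at chr8:109912440-109912499, mm9). It was 1.05-fold above vehicle for epoxides (0.074 on the log2 scale, within the technical SD) and 1.19-fold above it for GW9662 (0.25), read in the band of rows. Cbr1, a carbonyl reductase, had levels of 1.21, 0.88 and 1.07, with differences of -0.33 and -0.14. Its probe shares a run of 25 bases with the probe of another symbol, LOC102641578, so the transcripts may not be separable. Osgin1, an NRF2-responsive growth regulator, had levels of 1.44, 1.17 and 1.201, and was below vehicle by -0.27 for epoxides and -0.24 for GW9662, again in the band. Removing the trend in base composition and signal took the epoxide value of Osgin1 to -0.0048 and its GW9662 value to -0.17, and the epoxide value of Cbr1 to -0.17. Nqo1 and Osgin1 stood on opposite sides of vehicle on the GW9662 array.

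Haem breakdown and iron storage gave no common direction on the epoxide array, and probes of the same gene disagreed there. Hmox1, haem oxygenase, had levels of 1.02, 0.87 and 1.09 (probe at chr8:77624207-77624266, mm9), with differences of -0.15 for epoxides and 0.075 for GW9662. With the trend in base composition and signal removed the epoxide value became 0.12. A dimmer Hmox1 probe gave -0.59 and -0.10. The biliverdin reductase Blvra had levels of 0.93, 0.95 and 1.02, and Blvrb had levels of 1.27, 1.49 and 1.45. Vehicle was the lowest array in both reductases. Fth1, the ferritin heavy chain, had levels of 6.80, 6.49 and 6.81 (probe at chr19:10059485-10059544, mm9), with differences of -0.32 for epoxides and 0.0064 for GW9662, and the former became -0.12 with that trend removed. Ftl1, the ferritin light chain, had levels of 6.69, 6.81 and 6.68, and its epoxide array was the highest. Fth1 and the brighter Ftl1 probe were read in the band of rows. Both Ftl1 probes are placed on chromosome 17 by the file and may also report a related copy. The 2 Ftl1 probes gave 0.12 and -0.40 for epoxides minus vehicle, but -0.012 and -0.011 for GW9662 minus vehicle.

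Glutathione transferases join glutathione to electrophiles. Gsta3 had levels of -3.98, -3.84 and -3.54, near the lower end of what was measured and in the band of rows (probe at chr1:21255189-21255248, mm9). It had the greatest difference of the 36 genes from vehicle on the GW9662 array, 0.44 (1.36-fold), with 0.14 on the epoxide array. A second Gsta3 probe, also in the band, gave -0.083 for GW9662 and -0.50 for epoxides, so neither direction holds for the gene. Gstm1 had levels of 2.32, 2.00 and 2.19, with differences of -0.32 and -0.13. The epoxide values became 0.41 for Gsta3 and -0.11 for Gstm1 with that trend removed. The brightest Gstm1 probe is placed on chromosome 5 and its other probe on chromosome 3, and the latter gave -0.25 and -0.020. Gstp1 had levels of 1.96, 1.72 and 1.89, with the epoxide array lowest. Abcc4, an exporter of organic anions and conjugates, had levels of 0.18, 0.39 and 0.21, with the epoxide array highest.

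The enzymes that remove peroxide and superoxide were all lowest on the epoxide array, as were the 3 regulators and 53.6% of all genes detected on every array. None of the 5 was above vehicle for epoxides, where 38.9% of all measured genes were, and their median difference was -0.17. Under quantile normalization or cyclic loess 1 of 5 was above it (51.3% and 48.6% of all measured genes were). With the trend in base composition and signal removed 3 of 5 were (50.9%). Gpx4, the peroxidase that reduces lipid hydroperoxides in membranes, had levels of 5.67, 5.29 and 5.63 (probe at chr10:79518783-79518842, mm9). Its difference of -0.37 for epoxides was the greatest among the 36 genes in that comparison, while GW9662 stood at -0.031. The Gpx4 spot lies in the band of rows. Gpx1, the main cytosolic glutathione peroxidase, had levels of 4.94, 4.64 and 4.86, with differences of -0.30 and -0.084. Both peroxidase probes have 55% G and C bases. With the trend removed they were at -0.023 (Gpx4) and 0.0084 (Gpx1) for epoxides. Sod1, cytosolic superoxide dismutase, had levels of 5.49, 5.40 and 5.67 and differences of -0.088 and 0.18, and the epoxide value became 0.15 with the trend removed. Its probe shares a run of 25 bases with a probe named NAP097170-001. Cat, the catalase of peroxisomes, had levels of 1.16, 0.99 and 1.22. Sod2, the mitochondrial dismutase, had levels of 4.28, 4.17 and 4.24, all close together.

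**Figure D2:**
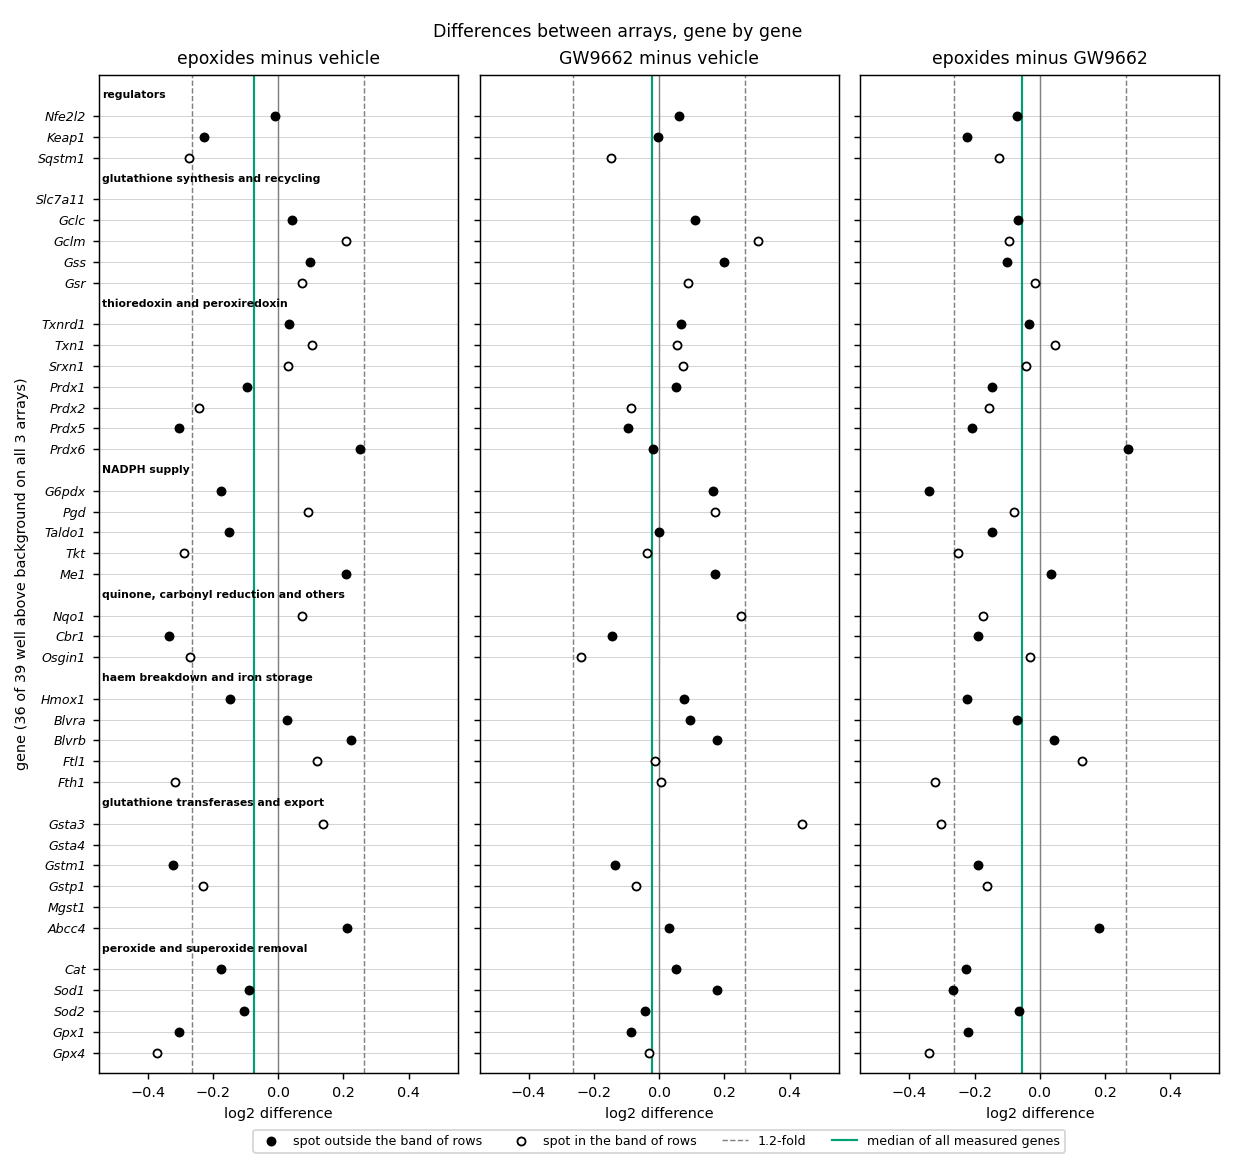
Log2 difference of each measured gene (horizontal axis, 3 panels for the 3 comparisons), genes grouped by role, filled points for spots outside the band of rows and open points for spots in it; the dashed lines mark 1.2-fold and the coloured line the median of all measured genes. Gclc, Gclm, Gss and Gsr lie right of 0 in both comparisons with vehicle. The 5 peroxide and superoxide genes and the 3 regulators lie left of 0 in the epoxide comparisons.

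Across the 36 genes the median difference between the epoxide and vehicle arrays was near that of all measured genes. Its sign turned under quantile normalization (0.027), under cyclic loess (0.031) and with the trend in base composition and signal removed (0.040). With epoxides, 16 of 36 genes were above vehicle, against 38.9% of 15812 measured genes, and the median difference was -0.092 against -0.073 for all measured genes. At 1.2-fold or more, none was higher (7.74% of all measured genes were) and 9 were lower (25.6%). The 9 were Gpx4, Cbr1, Gstm1, Fth1, Prdx5, Gpx1, Tkt, Sqstm1 and Osgin1, a share near the background. No gene reached 1.5-fold in either direction, past which 1.34% of all measured genes were higher and 8.84% lower, nor 2-fold, past which 0.215% were higher and 2.07% lower. Just short of the 1.2-fold lines were Prdx6 at 0.25 and Prdx2 at -0.24. The sign of the median differed by array rows. Outside the band 8 of 21 genes were above vehicle (40.1% of all measured genes there), with a median of -0.096 against -0.062. In the band 8 of 15 were (37.2%), with a median of 0.030 against -0.089.

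On the GW9662 array the genes lay slightly above vehicle. With GW9662, 21 of 36 were above vehicle against 42.2% of 15795 measured genes, and the median was 0.052 against -0.022 for all. Gsta3 and Gclm, both in the band, were at least 1.2-fold higher (2.88% of all measured genes were) and none was at least 1.2-fold lower (6.2%). None reached 1.5-fold, past which 0.696% of all measured genes were higher and 1.15% lower, or 2-fold, past which 0.355% were higher and 0.469% lower. Outside the band of rows, 13 of 21 genes were above vehicle (41.2% of all measured genes there), with a median of 0.053. In the band 8 of 15 were (43.5%), with a median of 0.0064.

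Set against each other, the epoxide array was below the GW9662 array for most of the genes. Here 6 of 36 were above 0 against 38.9% of 16044 measured genes, with a median of -0.14 against -0.056. Outside the band of rows 4 of 21 were above 0 (39.8% of all measured genes there), with a median of -0.15. In the band 2 of 15 were (37.6%), with a median of -0.13. At least 1.2-fold higher with epoxides was Prdx6 (0.27), where 5.33% of all measured genes were. Lower by that much were Gpx4 (-0.34), G6pdx (-0.34), Fth1 (-0.32), Gsta3 (-0.30) and Sod1 (-0.27), 5 of 36 where 18.9% of all measured genes were. No gene reached 1.5-fold (0.947% of all measured genes higher, 4.79% lower) or 2-fold (0.206% higher, 0.954% lower). The 3 comparisons share arrays, so their values are given side by side and are not independent of each other. Of the 36 genes, vehicle was the lowest array for 14, epoxides for 20 and GW9662 for 2. Over all 15698 genes detected on every array those shares were 27.6%, 53.6% and 18.8%.

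The base composition of the probes moved with these differences. Over the 36 genes, the log2 difference between epoxides and vehicle correlated with the probe's share of G and C bases at r = -0.71, and at -0.48 over all 15812 measured genes. For GW9662 minus vehicle r was -0.44 over the 36 genes and -0.21 over all measured genes. The points are spots of the same 2 arrays, share their labelling and dye, and are a description only. The 15 genes with probes under 40% G and C had a median epoxide difference of 0.091, as did the array's genes in that class (0.092), whereas the 7 genes with probes at 55% had -0.29 against -0.36 for all genes at 55% or more. With a quadratic trend in base composition and signal removed, the median of the 36 genes became 0.040 for epoxides, with 22 above vehicle, and 0.058 for GW9662, with 26 above. All genes then had medians of 0.0038 and -0.0028, with 50.9% and 48.8% above vehicle. What made the composition trend was not tested.

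**Figure D3:**
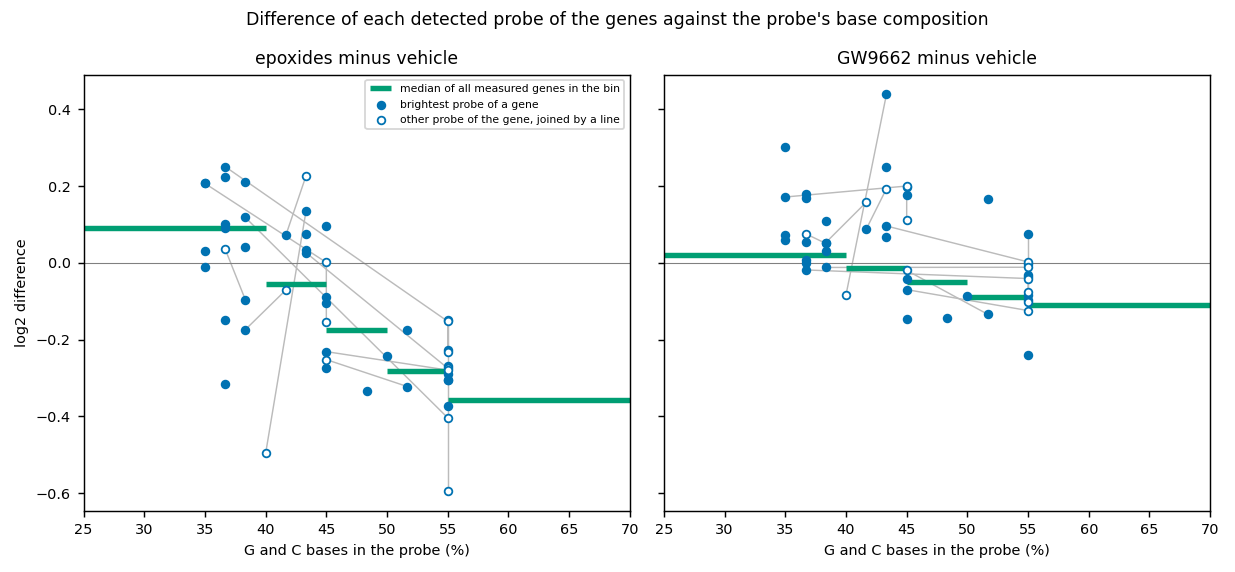
Log2 difference of each detected probe of the genes (vertical axis) against its share of G and C bases in percent (horizontal axis), for epoxides minus vehicle (left) and GW9662 minus vehicle (right); filled points are brightest probes, open points other probes of a gene joined to it by a line, and bars the medians of all measured genes in each class. The points in the left panel descend from left to right with the bars (r = -0.71 for the 36 brightest probes), and less so in the right panel (r = -0.44).

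Several of the genes had more than 1 detected probe. There were 11 such genes with 24 probes in all. The median spread between probes of a gene was 0.30 for epoxides minus vehicle and 0.094 for GW9662 minus vehicle. Probes of a gene lay on both sides of vehicle for 6 of the 11 with epoxides (Blvra, Ftl1, Gsta3, Me1, Prdx1 and Prdx6) and for 2 with GW9662 (Gsta3 and Hmox1). The 3 Me1 probes, for example, gave 0.21, 0.0011 and -0.16 for epoxides but 0.17, 0.20 and 0.11 for GW9662.

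The genes with the antioxidant response element core can be set beside those without, in a split that was made after the values had been seen. On the GW9662 array all 12 measured genes with the core were above vehicle by their brightest probe, from 0.031 (Abcc4) to 0.44 (Gsta3), with a median of 0.13. Of these, Abcc4, Prdx1, Nfe2l2, Txnrd1 and Srxn1 were within the technical SD of vehicle. The second Gsta3 probe gave -0.083. Of 20 genes with a window and no core 6 were above vehicle, with a median of -0.034, and of 4 without a window 3 were. The genes with the core were Gsta3, Gclm, Sod1, Me1, Pgd, G6pdx, Blvra, Srxn1, Txnrd1, Nfe2l2, Prdx1 and Abcc4. With epoxides 8 of the 12 were above vehicle (median 0.031), against 5 of the 20 (median -0.24). The core by itself did not mark such genes on the array: of all 1672 measured genes with the core 44.4% were above vehicle with GW9662, against 43.6% of 8222 with a window and no core. With epoxides those shares were 44.3% of 1671 genes and 42.0% of 8228. Probes of the 12 genes had a median of 38.3% G and C against 45% for the 20. With the trend in base composition and signal removed, 12 of 12 were above vehicle for GW9662 (median 0.12) against 14 of the 24 others (median 0.040). For epoxides 9 of 12 were (median 0.060) against 13 of 24 (median 0.0084). Of all measured genes 48.8% were then above vehicle for GW9662 and 50.9% for epoxides. The 24 others are the 20 genes with no core together with the 4 without a window. Outside the band of rows 8 of 8 genes with the core were above vehicle for GW9662 (41.6% of all measured genes) and 4 of 8 for epoxides (40.1%). With the columns of the value table taken as labelled, the count was 12 of 12 for epoxides and 8 of 12 for GW9662, so which treatment shows it rests on the assignment of the arrays. The part of the choice of members in this split was not tested.

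**Figure D4:**
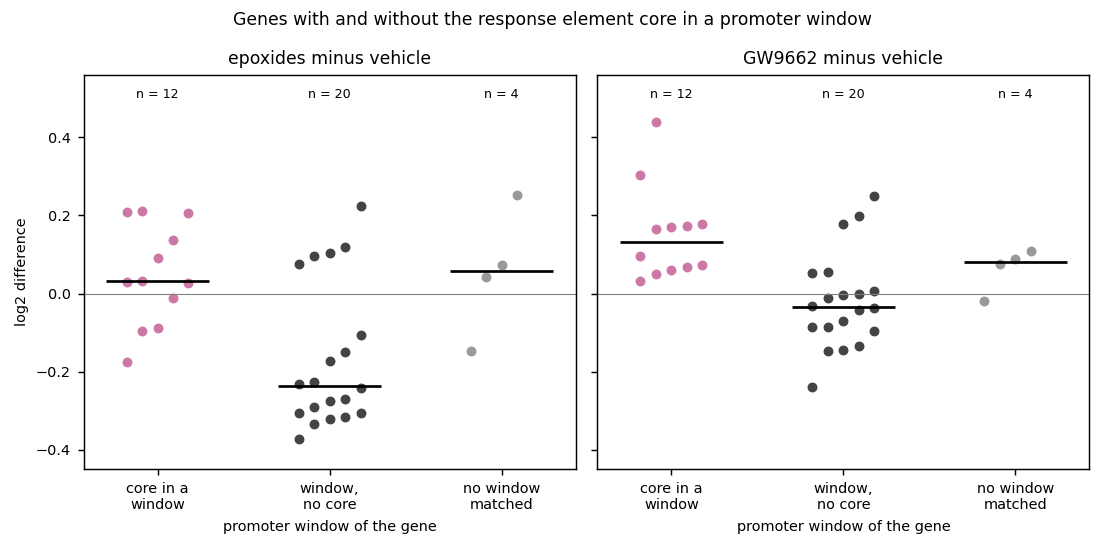
Log2 difference of each measured gene (vertical axis) for epoxides minus vehicle (left) and GW9662 minus vehicle (right), by whether its promoter window holds the core, holds none or was not matched; each point is 1 gene and bars are medians. In the right panel the 12 genes with the core lie between 0.031 and 0.44, all above 0, and the 20 without range from -0.24 to 0.25.

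A further 59 genes of the same pathways, such as other glutathione transferases, glutaredoxins, small MAF factors and transporters, were listed by function. Of these 58 had a probe. With epoxides 19 of 48 measured were above vehicle, against 38.9% of all measured genes, with 2 higher (7.74%) and 6 lower (25.6%) by 1.2-fold or more. With GW9662 25 of 48 were above it (42.2%) and none was 1.2-fold higher (2.88%) or lower (6.2%). Between the treatments 19 of 49 were higher with epoxides (38.9%), none by 1.2-fold (5.33%), and 2 were lower by that much (18.9%). None of those measured on both arrays reached 1.5-fold in any comparison. The farthest from vehicle with epoxides were Ggt5 (-0.54), a gamma-glutamyltransferase, the mitochondrial glutaredoxin Glrx2 (-0.50), Mgst3 (-0.43) and Gstm4 (-0.41), both glutathione transferases. With GW9662 they were Glrx2 (-0.26), the cytosolic glutaredoxin Glrx (0.23), Gstm4 (-0.18) and Ggt5 (-0.18). Between the treatments they were Ggt5 (-0.36), Mgst3 (-0.33), the small MAF partner of NRF2 Mafg (0.26) and the related factor Nfe2l1 (-0.25). Sod3, the extracellular superoxide dismutase, was well above background on the GW9662 array only, with levels of -6.77, -7.61 and -3.45 from a spot in the band of rows. Its GW9662 signal was at least 2.63-fold above vehicle and at least 4.35-fold above epoxides, and it is in none of the counts just given. Spots above background on the GW9662 array only, with a bound of at least 2-fold, were far more common in the band. They made up 147 of 18028 non-control spots in it (0.815%) and 7 of 24992 outside it (0.028%). The part of Sod3 in a local defect of the array was not tested.

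**Figure D5:**
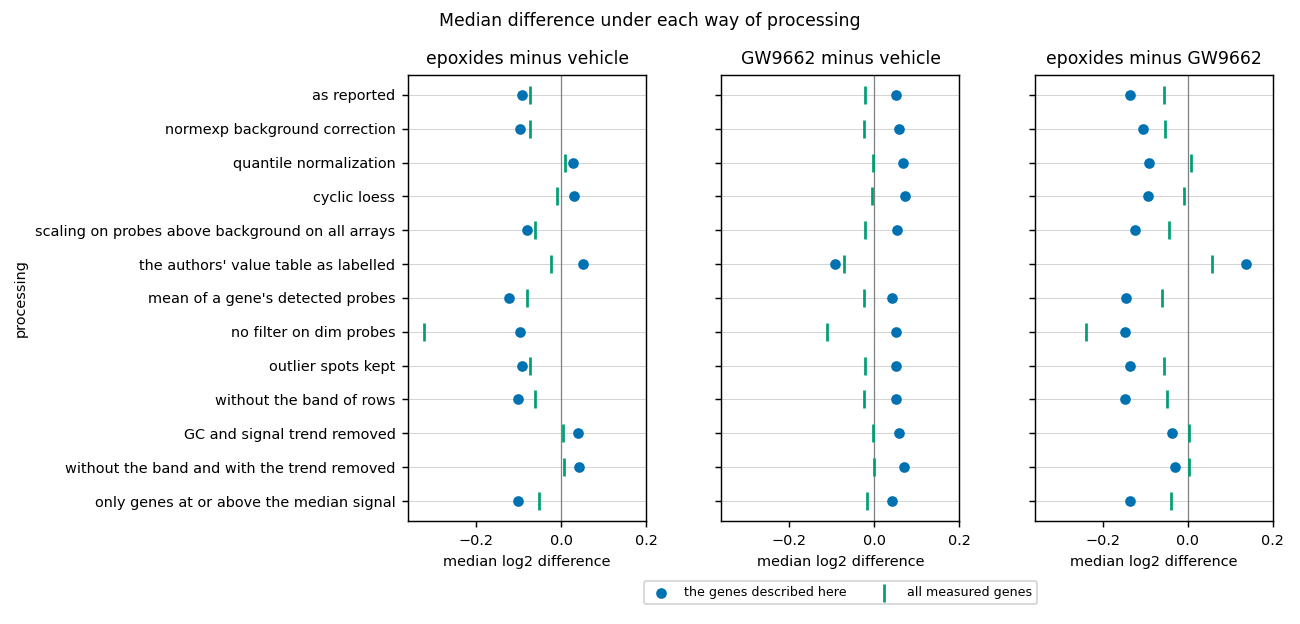
Median log2 difference of the genes described here (points) and of all measured genes (vertical bars) under each way of processing (rows) for the 3 comparisons (panels); the setting restricted to the band of rows is left out. For GW9662 minus vehicle the median lies above that of all genes in every row but that of the value table as labelled (-0.092), and for epoxides minus vehicle it ranges from -0.12 to 0.051.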

How the data were processed

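Each sample is 1 one-colour Agilent array of 60-base probes. The intensity values are the background-subtracted signals deposited in the scanner files, which per the submitters' processing notes came from Agilent Feature Extraction 11.5.1.1. The deposited value table holds a ratio per spot: each of its columns is a constant multiple of 1 scanner file, within a tolerance of 0.001. Its columns had medians of 0.0475 (vehicle), 0.0455 (labelled epoxides) and 0.0369 (labelled GW9662). It is linear, not log; the quantity it was divided by is not given in the sources used here.

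Control spots and spots with an outlier flag were left out, each array was scaled to its 75th percentile, log2 was taken, copies of a probe were averaged, and the brightest probe stood for a gene. A gene entered a comparison if it was well above background on both arrays. No spot was saturated. No test was possible with 1 array per group. The members and lists were chosen with earlier results of these data known. Every member was given its levels. Differences were printed for members at least 1.2-fold apart, for Nfe2l2 and Keap1, and for Nqo1, Hmox1, Gclc, Gclm, Slc7a11, Txnrd1 and Srxn1. Some other differences were printed where a sentence rests on them. Of other pathway genes the 4 farthest from 0 were named.

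The band of rows was set by a rule: blocks of 20 rows in which at least 2% of readings of probes with 5 or more copies lay at least 2-fold from the probe's median. The technical SD comes from 210 such probes. Probe positions are those of the files (mm9, per the file headers). The exon or UTR of a probe was not analysed here, and the planned marking of coding probes was left out. Promoter windows are from RefSeq, build GRCm38.p6. Python 3.11.15, pandas 2.3.3, R 4.3.3 and limma 3.58.1 (normexp with offset 50, quantile, cyclic loess) were used, and the summary steps were tested on simulated data. The alternatives tried were those normalizations, another scaling, the value table, other probe and filter rules, the band of rows, the composition trend and larger fold thresholds.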

Additional observations from a re-analysis of the deposited data

Results flagged for a closer look

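G6pdx, glucose-6-phosphate dehydrogenase, stood on opposite sides of vehicle on the treated arrays by at least 2 technical SDs each. Its levels were 3.62 on the vehicle array, 3.45 on the epoxide array and 3.79 on the GW9662 array. The log2 difference from vehicle was -0.17 for epoxides and 0.17 for GW9662, and the difference between these was not tested. The probe has 51.7% G and C bases and lies outside the band of rows. With the trend in base composition and signal removed the values were 0.060 and 0.23, so the 2 treatments were then on the same side of vehicle. It was the only measured gene of the 36 on opposite sides by that margin.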

How the results depend on the processing

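Leaving out a replicate was not possible with 1 array per group. No paired analysis was possible because the groups share a single replicate number. Of 244 values of single genes per comparison, 179 (epoxides minus vehicle), 220 (GW9662 minus vehicle) and 185 (epoxides minus GW9662) moved by less than the technical SD, and 26, 18 and 28 changed sign, of which 3, 0 and 7 were values of genes at least 1.2-fold apart. Several alternatives repeat a gene's reported value whenever its probe and scaling stay the same. These are keeping outlier spots, dropping the filter on dim probes, taking brighter genes only, and leaving out or keeping only the band. Such repeats are counted among the values that moved by less than the technical SD.

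For epoxides minus vehicle, the median of the genes was 0.027 under quantile normalization, 0.031 under cyclic loess, 0.051 in the value table as labelled, 0.040 with the composition and signal trend removed and 0.041 with that and without the band of rows. The count of genes at least 1.2-fold apart was 5 under cyclic loess, 2 in the value table, 5 with only the band of rows (of 18), 2 with the trend removed and 2 with that and without the band. Fth1 was at 0.0061 in the value table, and Tkt was at 0.049 and Gpx1 at 0.0084 with the trend removed.

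For GW9662 minus vehicle, the median turned to -0.092 in the value table. The count was 1 under normexp, with a gene's probes averaged or with genes at or above the median signal only, 5 of 39 with no filter on dim probes, 9 in the value table, and 0 without the band, alone or with the trend removed.

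For epoxides minus GW9662, the median was 0.14 in the value table, -0.038 with the trend removed and -0.031 with that and without the band. The count was 3 under quantile normalization, cyclic loess, only the band of rows or the trend removed, and 2 with the trend removed and without the band. In the value table the signs turn because its treated columns are exchanged: Prdx6 was at -0.27, G6pdx 0.34, Fth1 0.32, Gsta3 0.30, Sod1 0.27 and Gpx4 0.34. Prdx6 was at -0.16 with only the band of rows, where another probe stands for it. At 1.5-fold and at 2-fold the count was 0 in each comparison. The cause of the other moves was not tested.

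Depth of signal limits Gsta3 most, whose levels were near the lowest well above background, and the spread between cultures is unknown.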
